A study of Mus musculus with 4 samples.

Results

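The tumour necrosis factor (TNF) and death receptors with their adaptors form a set of 10 genes, namely the receptors *Tnfrsf1a*, *Tnfrsf1b*, *Fas*, *Tnfrsf9*, *Tnfrsf10b*, *Tnfrsf12a*, *Tnfrsf19* and *Tnfrsf21* and the cytoplasmic adaptors *Tradd* and *Fadd*. Their probes were found by the RefSeq transcript accession that the array design gives, and all 10 were on the array, among 20643 genes with a RefSeq symbol and 37042 genes or unnamed transcripts in all. They were read by 13 probes and 23 spots, and 11 of the 13 probes were well above background on all 4 arrays. RNA came from primary chondrocytes of C57BL/6J mice aged 6 days. The control group (controls below) was Rela fl/fl, in which both alleles of *Rela*, the p65 subunit of NF-κB, are floxed. The other group, labelled cKO, was Prrx1-Cre; Rela fl/fl, which carries the same floxed alleles with Cre recombinase under the *Prrx1* promoter of limb mesenchyme, and the mice were littermates. Cells of each genotype were cultured for 3 days either without TNF or with TNF at 10 ng per ml. Each of these 4 groups had 1 array, so none of the differences below has a replicate array behind it, and no test between groups was run. An additive fit of genotype and TNF would leave 1 residual degree of freedom and was left out.

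Members of the TNF receptor superfamily bind trimeric ligands of the TNF family at the cell surface and pass the signal on through the adaptors that their cytoplasmic tails recruit. Receptors with a death domain (*Tnfrsf1a*, *Fas*, *Tnfrsf10b* and *Tnfrsf21* here) can engage the death domain adaptors *Tradd* and *Fadd*, and *Fadd* brings caspase-8 to the receptor to start apoptosis. The same receptors, and those without a death domain, can also recruit TRAF proteins and activate NF-κB, which drives survival and inflammatory genes. In cartilage, TNF is known as an inducer of matrix-degrading enzymes and of chondrocyte death.

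Proximal promoters of the members were taken from RefSeq (GRCm38.p6), which held 10 windows for 8 of the 10 genes. The windows for *Tradd* and *Tnfrsf10b* were not among them. Each window runs from 250 bases before a transcription start to 50 after it, and both strands were searched for the κB consensus and for the AP-1 sequences TGAGTCA and TGACTCA, which are the same site read on opposite strands. The κB consensus was in 1 of the 10 windows, that of a second start of *Tnfrsf9*, and in 4.505% of all 32851 promoters in the table. AP-1 was in 2 windows, those of *Fas* and of the same start of *Tnfrsf9*, and in 5.202% of all promoters. A match is a description of the letters in the window. The 250 bases before the start are printed for these 2 and for *Tnfrsf12a*, the member with the widest range over the 4 arrays, with the matched bases in capitals (*Fas* on chr19:34290409-34290658, plus strand, AP-1 from 211 to 205 bases before the start; *Tnfrsf9* on chr4:150927749-150927998, plus strand, κB from 43 to 33 bases and AP-1 from 15 to 9 bases before the start; *Tnfrsf12a* on chr17:23677450-23677699, minus strand, no match). At the *Tnfrsf9* start, the capitals mark 2 overlapping κB matches.
Fas: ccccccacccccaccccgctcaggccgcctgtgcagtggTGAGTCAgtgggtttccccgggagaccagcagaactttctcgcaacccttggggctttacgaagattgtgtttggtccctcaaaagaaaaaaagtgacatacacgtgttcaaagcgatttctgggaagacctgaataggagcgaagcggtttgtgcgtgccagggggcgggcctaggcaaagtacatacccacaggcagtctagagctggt
Tnfrsf9: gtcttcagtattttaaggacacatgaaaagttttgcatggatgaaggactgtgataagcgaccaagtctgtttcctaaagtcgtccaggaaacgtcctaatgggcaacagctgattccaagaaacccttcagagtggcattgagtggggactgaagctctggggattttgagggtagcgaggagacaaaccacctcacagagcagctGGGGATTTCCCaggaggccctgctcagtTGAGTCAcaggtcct
Tnfrsf12a: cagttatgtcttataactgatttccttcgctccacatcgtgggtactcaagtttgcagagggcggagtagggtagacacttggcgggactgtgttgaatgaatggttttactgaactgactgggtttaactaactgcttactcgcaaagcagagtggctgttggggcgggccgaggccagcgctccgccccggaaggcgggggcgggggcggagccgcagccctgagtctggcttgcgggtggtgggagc

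Signals are given relative to the 75th percentile over all transcript spots on the same array, so that a signal of 1 is that percentile, and a log2 difference compares the signals of 2 arrays. The repeated spots of probes with 10 spots gave a technical spread (SD) of a difference between 2 arrays of 0.272 on the log2 scale for signals under 0.25, 0.143 from 0.25 to 1, 0.0949 from 1 to 4 and 0.0789 above 4. This spread covers spots within an array and says nothing of the spread between cultures. *Rela* itself gave signals of 28.3 without and 34.7 with TNF in controls, and of 33.9 and 40.2 on the cKO-labelled arrays. Its probe therefore does not show the deletion, whose exons were not compared with the probe, and the name "cKO-labelled arrays" is kept throughout. The chemokine *Ccl2*, a known TNF target, went from 0.914 to 29.7 in controls and from 0.913 to 8.23 on the cKO-labelled arrays. Among 10 listed NF-κB target and acute-phase genes, 8 were at least 2-fold higher with TNF in controls, and 4 of 8 on the cKO-labelled arrays, where *Il6* and *Saa3* were not well above background on either. All 8 chondrocyte markers were well above background on all 4 arrays, with summed signals of 1550 and 1484 in controls without and with TNF and of 1265 and 1292 on the cKO-labelled arrays. The 6 fibroblast markers were also well above background on every array, with sums from 379 to 467. Of 7 leukocyte markers measured, 5 or 6 were well above background, but *Ptprc* (CD45) was not on any array, and the sums were 35.6 to 44.4. Of 4 endothelial markers, 2 were well above background on each array, while *Cdh5* and *Tek* were not on any, with sums from 17.7 to 20.7. *Xist* had signals of 0.715 and 0.752 in controls and was not well above background on either cKO-labelled array, and between genotypes the Y-linked *Ddx3y* differed by 1.49 without TNF and by 1.71 with it. *Eif2s3y*, also Y-linked, differed by 1.81 and 1.83. In controls without and with TNF, *Ddx3y* read 1.30 and 1.30 and *Eif2s3y* 1.77 and 1.84, all well above background. *Uty*, another Y-linked gene, was not well above background in controls but was on both cKO-labelled arrays. The control arrays thus gave signal for *Xist* as well as for *Ddx3y* and *Eif2s3y*. The sums rest on a few bright genes, and single markers differed past 2-fold between genotypes. On the log2 scale, the chondrocyte marker *Matn1* differed by -1.85 without and -1.18 with TNF, and the fibroblast marker *Thy1* by -1.59 without TNF. Among leukocyte markers between genotypes without TNF, *Lyz2* was at -2.11 (spot in a patch on the control array without TNF), *Tyrobp* at -1.61 as a bound, and *Adgre1* at 2.87 (spot in a patch on the cKO-labelled array without TNF). With TNF, *Lyz2* was at -1.42 in controls and *Adgre1* at -3.47 on the cKO-labelled arrays. The part of these marker levels in the differences below was not tested. Sex and genotype cannot be told apart on these arrays, which bears on every difference between genotypes below. In bulk RNA of this kind, fewer cells of a type and less RNA per cell cannot be told apart either. Some spots lay in patches that were bright on 1 array only, with shares of 10.7%, 7.17%, 9.46% and 1.04% in the order Rela fl/fl without TNF, Rela fl/fl with TNF, cKO-labelled without TNF and cKO-labelled with TNF. Of the 23 member spots, 8 lay in such a patch on some array, and they are named below. No spot of *Fas*, *Tnfrsf9*, *Tnfrsf12a*, *Tnfrsf19* or *Tradd* was among them.

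**Figure D1:**
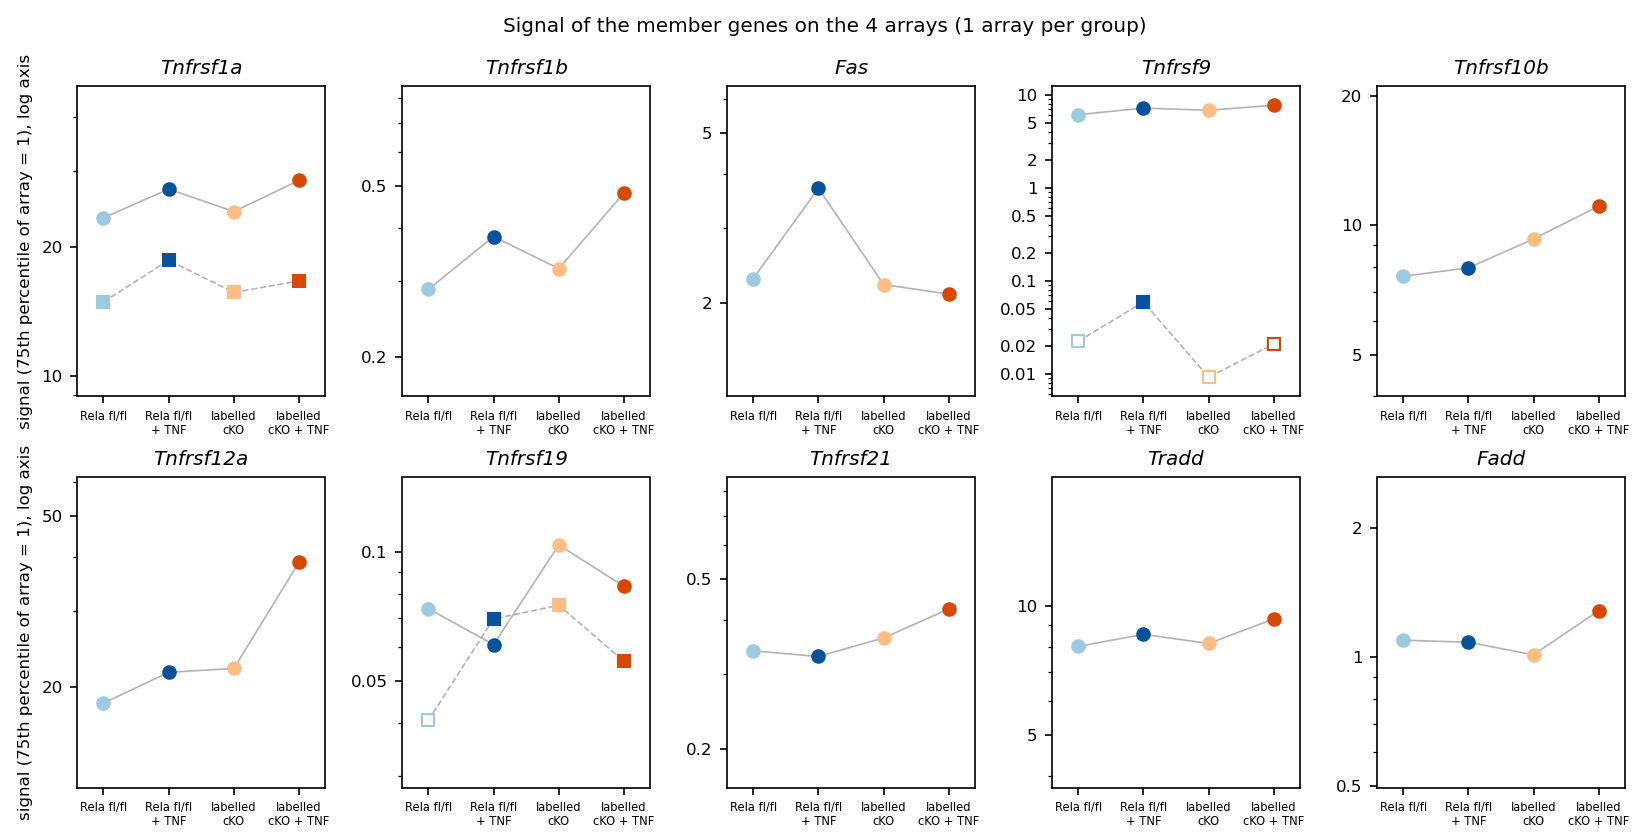
Signal of each member on the 4 arrays (75th percentile of the array = 1, log axis, each panel with its own range), for controls (Rela fl/fl) and the cKO-labelled arrays without and with TNF, 1 array per group and so without error bars. Circles are the probe that stands for the gene, squares a second probe of *Tnfrsf1a*, *Tnfrsf9* and *Tnfrsf19*, and open symbols spots not well above background; *Fas* is highest in controls with TNF (3.71) and *Tnfrsf12a* on the cKO-labelled array with TNF (39.0).

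Both receptors for TNF itself had higher signals with TNF in both genotypes. *Tnfrsf1a*, the death domain receptor TNFR1 that most cells carry, was read by a probe with 10 spots. Its mean signal was 23.3 in controls without TNF, 27.2 with TNF, 24.1 on the cKO-labelled array without TNF and 28.5 with TNF. The spots covered 22.3 to 24.1 and 25.8 to 28.1 in controls, and 23.2 to 24.8 and 26.5 to 30.0 on the cKO-labelled arrays. As scaled, the spots with and without TNF did not overlap within either genotype. Without scaling, the spots with and without TNF overlapped on the cKO-labelled arrays. The log2 difference with TNF was 0.22 in controls (1.17-fold) and 0.24 on the cKO-labelled arrays (1.18-fold), beside a technical spread of 0.0249 for the mean of 10 spots. Under the 6 alternatives that act on this gene, these differences ranged from 0.18 to 0.27 and from 0.10 to 0.25, a wider span than that spread. At all 10 positions the spot was higher with TNF, by 0.17 to 0.29 in controls and by 0.19 to 0.32 on the cKO-labelled arrays. Spots of 1 array share their RNA, and 4 of the 10 lay in a patch, 2 on the control array without TNF and 1 each on the control array with TNF and the cKO-labelled array without TNF. Between genotypes, *Tnfrsf1a* differed by 0.05 without and 0.07 with TNF, and the latter was just below 0 without scaling and with quantile normalization (-0.000807 and -0.00481). A second probe of the gene, with 1 spot, read 14.9, 18.6, 15.6 and 16.6 in the same order of arrays, and its log2 difference with TNF was 0.32 in controls and 0.09 on the cKO-labelled arrays. As scaled, the probes therefore gave the same direction with TNF and different sizes, and with TNF they differed in direction between genotypes (0.07 and -0.16). Without scaling, the second probe was slightly lower with TNF on the cKO-labelled arrays, with intensities of 9916 without and 9807 with TNF.

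**Figure D2:**
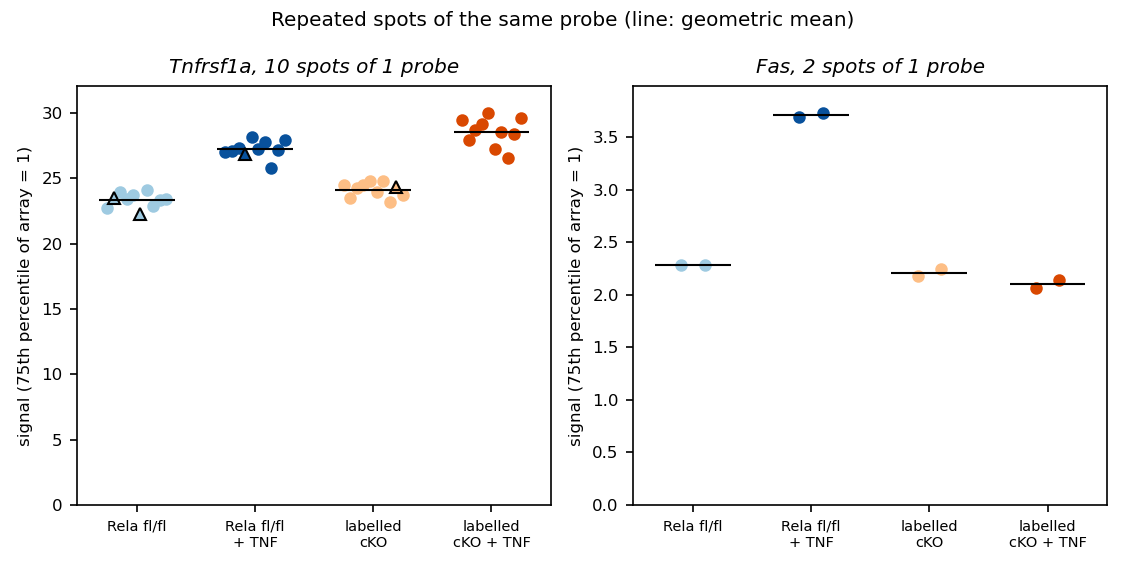
Single spots of the *Tnfrsf1a* probe with 10 spots and of the *Fas* probe with 2 spots on each array (signal, 75th percentile of the array = 1, axes from 0); horizontal lines are geometric means and triangles are spots in a bright patch of that array. As scaled, *Tnfrsf1a* spots with TNF (25.8 to 30.0) lie above those without it (22.3 to 24.8) in both genotypes, but without scaling they overlap on the cKO-labelled arrays. The *Fas* spots are raised on the control array with TNF only (3.69 and 3.73).

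*Tnfrsf1b*, the receptor TNFR2 that lacks a death domain and signals through TRAF2, had low signals of 0.287 and 0.381 in controls without and with TNF and of 0.321 and 0.482 on the cKO-labelled arrays. It was thus lowest in controls without TNF and highest on the cKO-labelled array with TNF. The log2 difference with TNF was 0.41 (1.33-fold) in controls and 0.59 (1.5-fold) on the cKO-labelled arrays, and the technical spread at this level was 0.143. Its only spot lay in a patch on the control array with TNF, whose part in the first of these differences was not tested. The difference between genotypes was 0.16 without and 0.34 with TNF (0.04 and 0.18 with normexp background correction). The value of 0.34 also uses the array with that patch.

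The death receptor *Fas* was higher with TNF in controls and not on the cKO-labelled arrays. Its probe had 2 spots, which read 2.28 and 2.29 in controls without TNF and 3.69 and 3.73 with TNF. On the cKO-labelled arrays they read 2.18 and 2.25 without TNF and 2.06 and 2.14 with TNF. The control array with TNF therefore stood above the other 3, with no overlap of spots. The log2 difference with TNF was 0.70 (1.62-fold) in controls and -0.07 on the cKO-labelled arrays. Without TNF the genotypes differed by -0.05, which is within the technical spread of 0.0671 for a mean of 2 spots, and with TNF *Fas* was 1.77-fold lower on the cKO-labelled array (-0.82). The TNF difference on the cKO-labelled arrays was smaller than that in controls by 0.77, although this difference of differences was not tested. Under the 4 alternatives in scaling and background correction that act on *Fas*, the values lay between 0.67 and 0.72 for TNF in controls, between -0.19 and -0.04 for TNF on the cKO-labelled arrays, and between -0.89 and -0.77 for the genotypes with TNF. The first and the last of these comparisons share the control array with TNF, so they are not independent measurements. The ligand of *Fas*, *Fasl*, was not well above background on any array.

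The death domain receptors *Tnfrsf10b* and *Tnfrsf21* had other patterns. *Tnfrsf10b*, the mouse receptor for the ligand TRAIL, had signals of 7.61 and 7.96 in controls without and with TNF and of 9.30 and 11.1 on the cKO-labelled arrays. Both cKO-labelled arrays were above both control arrays. The log2 difference between genotypes was 0.29 without and 0.48 with TNF (1.22-fold and 1.39-fold), beside a technical spread of 0.0789. With TNF the log2 difference was 0.06 in controls (0.12 with normexp background correction) and 0.25 on the cKO-labelled arrays (0.14 with the deposited value table). Its spot lay in a patch on the control array without TNF, whose part in these differences was not tested. *Tnfsf10*, which encodes TRAIL, was not well above background on any array. *Tnfrsf21*, also called death receptor 6, read 0.339 and 0.329 in controls without and with TNF and 0.364 and 0.425 on the cKO-labelled arrays. Its differences with TNF were -0.04 (0.0791 with normexp background correction) and 0.22 (0.11 with the deposited value table and 0.35 with quantile normalization), at a technical spread of 0.143. For *Tnfrsf21* the highest array was that cKO-labelled with TNF, by 0.37 over controls with TNF (0.21 with normexp background correction). Its spot lay in a patch on the cKO-labelled array without TNF.

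Among the receptors without a death domain, *Tnfrsf12a* covered the widest range over the 4 arrays, 1.09 on the log2 scale for the probe that stands for the gene, and by that probe it was the only member to span 2-fold. *Tnfrsf12a* (Fn14) is the receptor for the ligand TWEAK, and its expression is known to be induced by growth factors and tissue injury. Its signals were 18.3 in controls without TNF, 21.6 with TNF, 22.0 on the cKO-labelled array without TNF and 39.0 with TNF. The first 3 arrays lay close together and the cKO-labelled array with TNF stood above all of them. The log2 difference with TNF was 0.24 (1.18-fold) in controls and 0.82 (1.77-fold) on the cKO-labelled arrays. Between genotypes it was 0.27 without TNF and 0.85 (1.81-fold) with TNF, beside a technical spread of 0.0789. The difference of the TNF differences was 0.58 and was not tested. Under the same 4 alternatives in scaling and background correction, the TNF difference was 0.20 to 0.28 in controls and 0.69 to 0.82 on the cKO-labelled arrays. *Tnfsf12*, which encodes TWEAK, had signals of 1.56, 1.53, 1.41 and 1.52 in the same order of arrays, and its spot lay in a patch on the control array with TNF. Among 13351 other genes well above background on all 4 arrays, those with a pattern most like that of *Tnfrsf12a* included *Radil* and *Omp*, with root mean square distances of 0.035 and 0.049 between log2 values centred on each gene's mean over the 4 arrays. *Radil* had signals from 0.258 to 0.543, and *Omp* from 0.0554 to 0.114, near the background. The technical spreads at these levels, 0.143 and 0.272, are wider than the distances. With 4 points per gene, such likeness is a description only.

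*Tnfrsf9* (4-1BB), a co-stimulatory receptor best known on T cells, was read by a pair of probes that did not give the same pattern. The brighter probe had signals of 6.11 and 7.18 in controls without and with TNF and of 6.81 and 7.71 on the cKO-labelled arrays. It was higher with TNF in both genotypes, by 0.23 and 0.18 on the log2 scale, and differed between genotypes by 0.16 without and 0.10 with TNF. The dimmer probe read 0.0223, 0.0592, 0.00920 and 0.0210 and was well above background on the control array with TNF only. There, taking the lowest signal well above background for the dim arrays, it was at least 1.13-fold higher with TNF, and at least 1.998-fold lower on the cKO-labelled array with TNF. The probes therefore gave opposite directions between genotypes with TNF, and RefSeq holds 5 transcripts of the gene in this annotation. Which transcripts each probe reads was not determined. *Tnfrsf19* (TROY), an orphan receptor of the family, was near the background. Its brighter probe read 0.0738, 0.0608, 0.104 and 0.0831 in the same order of arrays, which gave log2 differences of -0.28 and -0.32 with TNF, 0.49 between genotypes without TNF and 0.45 with TNF, against a technical spread of 0.272. With normexp background correction, *Tnfrsf19* was at 0.16 and 0.24 between genotypes without and with TNF, within that spread. Its other probe read 0.0405 (not well above background), 0.0698, 0.0751 and 0.0556, and gave 0.41 as a lower bound with TNF in controls and -0.43 with TNF on the cKO-labelled arrays. Between genotypes with TNF, this probe gave -0.33. No direction can be given for *Tnfrsf19* in these 2 comparisons, with TNF in controls and between genotypes with TNF, since its probes disagreed.

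The adaptors differed little between arrays. *Tradd*, which binds the death domain of TNFR1 and recruits RIPK1 and TRAF2, had signals of 8.03 and 8.57 in controls without and with TNF and of 8.16 and 9.31 on the cKO-labelled arrays. The log2 difference with TNF was 0.09 in controls and 0.19 on the cKO-labelled arrays, and between genotypes it was 0.02 without and 0.12 with TNF, beside a technical spread of 0.0789. The value of 0.19 became 0.0852 without scaling, 0.0801 with quantile normalization and 0.0779 with the deposited value table, all near that spread. *Fadd*, the adaptor that links death receptors to caspase-8, read 1.095 and 1.08 in controls and 1.01 and 1.28 on the cKO-labelled arrays. It was highest on the cKO-labelled array with TNF, where the log2 difference with TNF was 0.34, against -0.02 in controls (0.0517 with normexp background correction). Between genotypes *Fadd* differed by -0.11 without and 0.24 with TNF, at a technical spread of 0.0949. Its spot lay in a patch on the control array without TNF, whose part in the difference of -0.11 was not tested. *Fadd* and *Tradd* thus moved by less than 1.5-fold in each of the 4 comparisons.

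**Figure D3:**
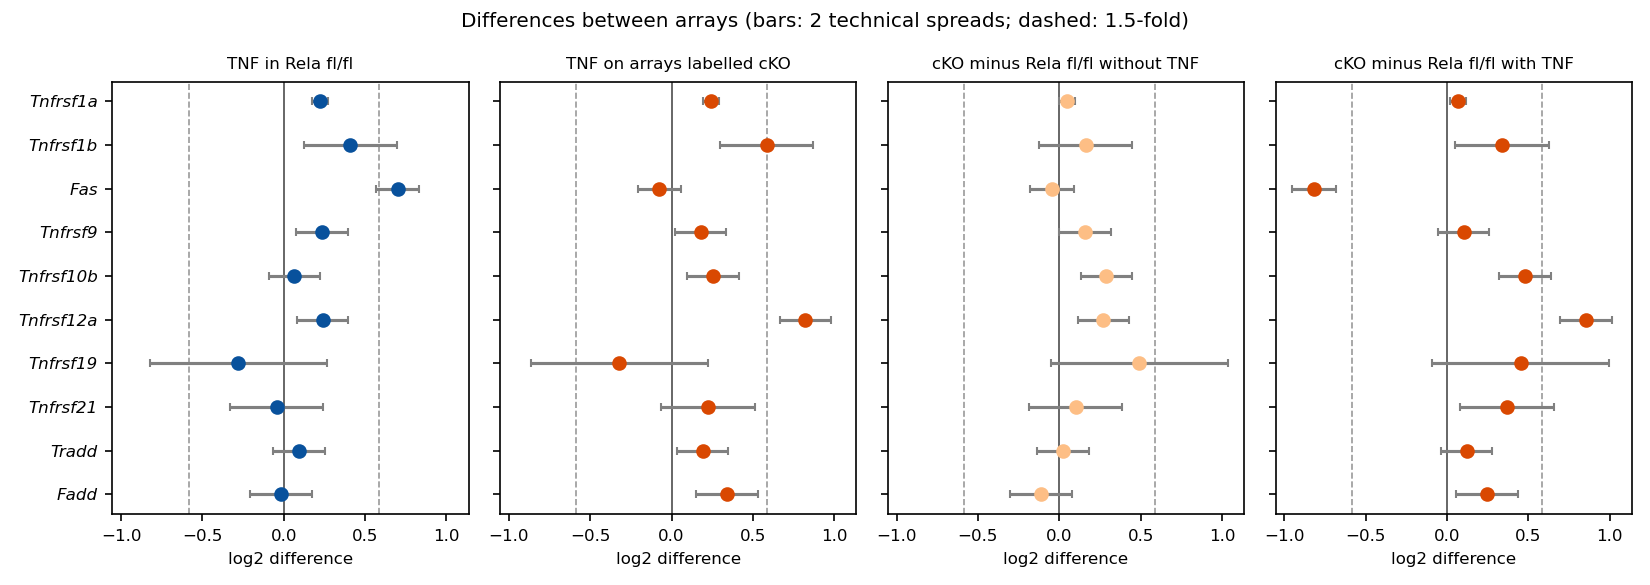
Log2 difference of each member in the 4 comparisons (right of 0, higher with TNF or higher on the cKO-labelled array), for the probe that stands for the gene; bars are 2 technical spreads of a difference at that signal level, not an error between cultures, and dashed lines mark 1.5-fold. *Fas* lies past the line with TNF in controls (0.70) and between genotypes with TNF (-0.82), and *Tnfrsf12a* with TNF on the cKO-labelled arrays (0.82) and between genotypes with TNF (0.85).

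Counted over the set, no member reached 2-fold in any of the 4 comparisons, in which 5.02% of all genes did with TNF in controls, 3.24% with TNF on the cKO-labelled arrays, 5.67% between genotypes without TNF and 3.66% between genotypes with TNF. With a limit of 1.5-fold, *Fas* was the only member higher with TNF in controls (1 of 10 members and 3.74% of all genes) and none was lower (5.06% of all genes). With TNF on the cKO-labelled arrays, *Tnfrsf12a* and *Tnfrsf1b* were higher, the latter at the limit itself, with a log2 difference of 0.42 under normexp background correction (2 of 10 members and 2.60% of all genes), and none was lower (4.51% of all genes). Between genotypes without TNF, no member was past 1.5-fold in either direction, and 4.60% of all genes were higher and 5.89% lower. Between genotypes with TNF, *Tnfrsf12a* was higher (1 of 10 members and 4.46% of all genes) and *Fas* lower (1 of 10 members and 4.86% of all genes). Counts of 0 to 2 among 10 genes are too few to set apart from these shares.

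Differences of any size were counted by direction as well. With TNF, 7 of the 10 members were above 0 in controls (53.9% of all genes) and 8 on the cKO-labelled arrays (65.5% of all genes), with medians over the members of 0.16 and 0.23 beside 0.01 and 0.07 over all genes. The median over all genes with TNF on the cKO-labelled arrays was -0.03 without scaling, while the median over the members stayed above 0 there (0.13). Between genotypes, 8 members were above 0 without TNF (51.2% of all genes) and 9 with TNF (61.9% of all genes), the latter including *Tnfrsf19*, and both counts were 7 with the mean over probes, which for *Tnfrsf9* takes in values not well above background. The medians over the members were 0.13 and 0.29, beside 0.01 and 0.06 over all genes. The median of 0.29 became 0.12 with each probe counted and 0.11 with patches left out, beside 0.06 and 0.07 over all genes. The cKO-labelled array with TNF gave the highest signal of the 4 for 8 of the 10 members, all but *Fas* and *Tnfrsf19*, and for 44.1% of all genes. The control array without TNF gave the lowest for 6 of the 10 and for 31.4% of all genes. Without scaling the cKO-labelled array with TNF was highest for 7 members (25.9% of all genes), with the mean over all probes of a gene for 6 (41.5%), and with patches left out for 4 of the 6 members that remain (45.4%).

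**Figure D4:**
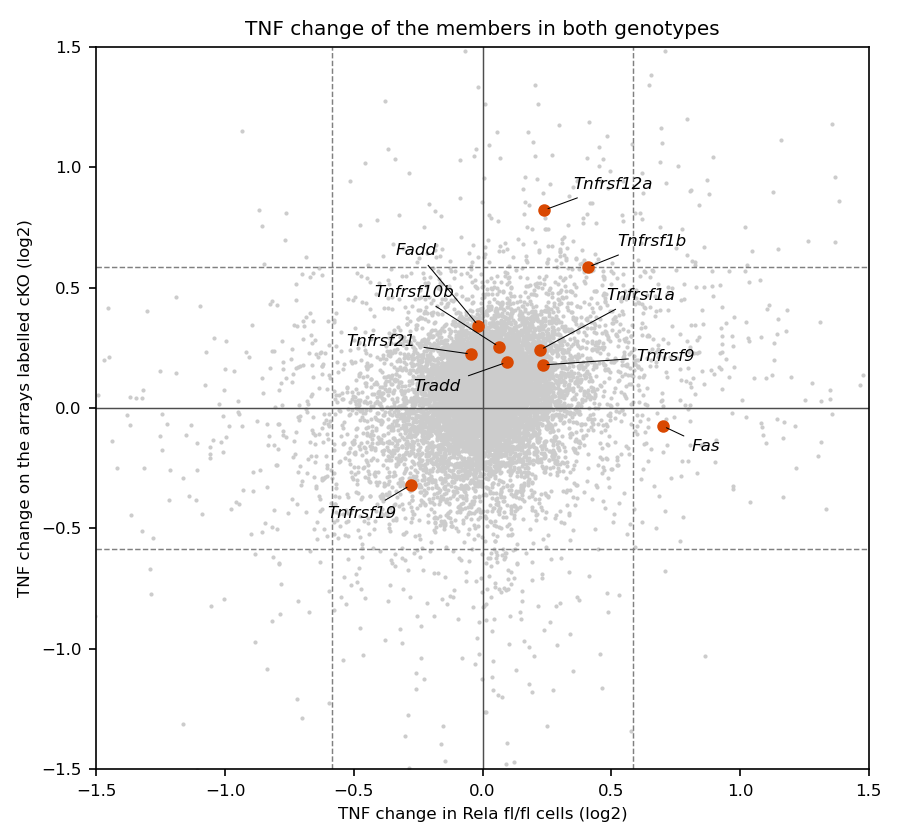
Log2 difference with TNF in controls (Rela fl/fl, horizontal axis) and on the cKO-labelled arrays (vertical axis) for the 10 members (orange) and all genes well above background on all 4 arrays (grey), with dashed lines at 1.5-fold; 198 of 13352 genes lie beyond the axes. Each axis uses its own pair of arrays, and *Fas* (0.70 and -0.07) and *Tnfrsf12a* (0.24 and 0.82) lie away from the other members in different directions.

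The other genes of the pathway are read against the shares of all genes past 2-fold, which were 5.02% with TNF in controls, 3.24% with TNF on the cKO-labelled arrays, and 5.67% without and 3.66% with TNF between genotypes. Of 20 other receptors of the superfamily, 13 to 16 could be measured in each comparison. With TNF in controls, 1 of 13 was lower by at least 2-fold and none higher, and their median was -0.04. The one was *Ngfr*, the p75 neurotrophin receptor, with signals of 0.759 without and 0.378 with TNF and of 0.333 and 0.326 on the cKO-labelled arrays. Between genotypes without TNF, the log2 difference of *Ngfr* was -1.19. With TNF on the cKO-labelled arrays, *Tnfrsf13c*, the receptor for the B cell survival factor BAFF, was at 1.74 and *Tnfrsf26* at -3.41 on the log2 scale, but the spot of *Tnfrsf26* lay in a patch on the cKO-labelled array without TNF, where its signal was 0.691, against 0.0443 to 0.0723 on the other arrays. It was also higher by 3.26 on the cKO-labelled array without TNF. With TNF, *Tnfrsf13c* was higher on the cKO-labelled array by at least 1.98, and its spot lay in a patch on the control array with TNF. *Tnfrsf13c* was near the background, with 0.0435 without and 0.145 with TNF on the cKO-labelled arrays. It was read by 1 spot and was not well above background in controls. These receptors past 2-fold were 2 of 16 with TNF on the cKO-labelled arrays, 2 of 13 between genotypes without TNF and 1 of 16 with TNF. The medians of these receptors in the other 3 comparisons were 0.25 with TNF on the cKO-labelled arrays, 0.17 between genotypes without TNF and 0.32 with TNF.

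Of 17 ligands of the family on the array, only 5 to 7 could be measured, and *Tnf* itself was not well above background on any array. *Tnfsf11*, which encodes RANKL, the cytokine that drives osteoclast formation, was the only ligand past 2-fold. Its signals were 0.0408 (not well above background) and 0.686 in controls without and with TNF and 0.0453 and 0.153 on the cKO-labelled arrays. On the log2 scale it was higher with TNF by at least 3.71 in controls and by 1.76 on the cKO-labelled arrays, and between genotypes with TNF its difference was -2.16. Its spot lay in a patch on the control array with TNF, and the part of that patch in these values was not tested.

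All 28 genes of receptor-proximal signalling were measured, and their medians were 0.11 with TNF in controls, 0.13 with TNF on the cKO-labelled arrays, -0.04 between genotypes without TNF and 0.08 with TNF. Past 2-fold with TNF were *Tnfaip3* and *Traf1* in controls and *Traf1* on the cKO-labelled arrays. *Tnfaip3*, which encodes A20, a ubiquitin-editing inhibitor of NF-κB, had signals of 0.253 and 0.870 in controls without and with TNF and of 0.240 and 0.343 on the cKO-labelled arrays. *Traf1*, a TRAF protein that binds TNFR2, had signals of 0.223 and 0.450 in controls and of 0.212 and 0.930 on the cKO-labelled arrays. Between genotypes with TNF, the log2 difference of *Tnfaip3* was therefore -1.34 and that of *Traf1* was 1.05. Like *Fas*, *Tnfaip3* was highest in controls with TNF, but it was also higher with TNF on the cKO-labelled arrays, by 0.51. Like *Tnfrsf12a*, *Traf1* was highest on the cKO-labelled array with TNF, although the spot of *Traf1* lay in a patch on the control array with TNF. The remaining 26 genes, which include *Ripk1*, *Casp8*, *Cflar*, *Traf2* and *Birc3*, were not past 1.5-fold in any of the 4 comparisons.

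**Figure D5:**
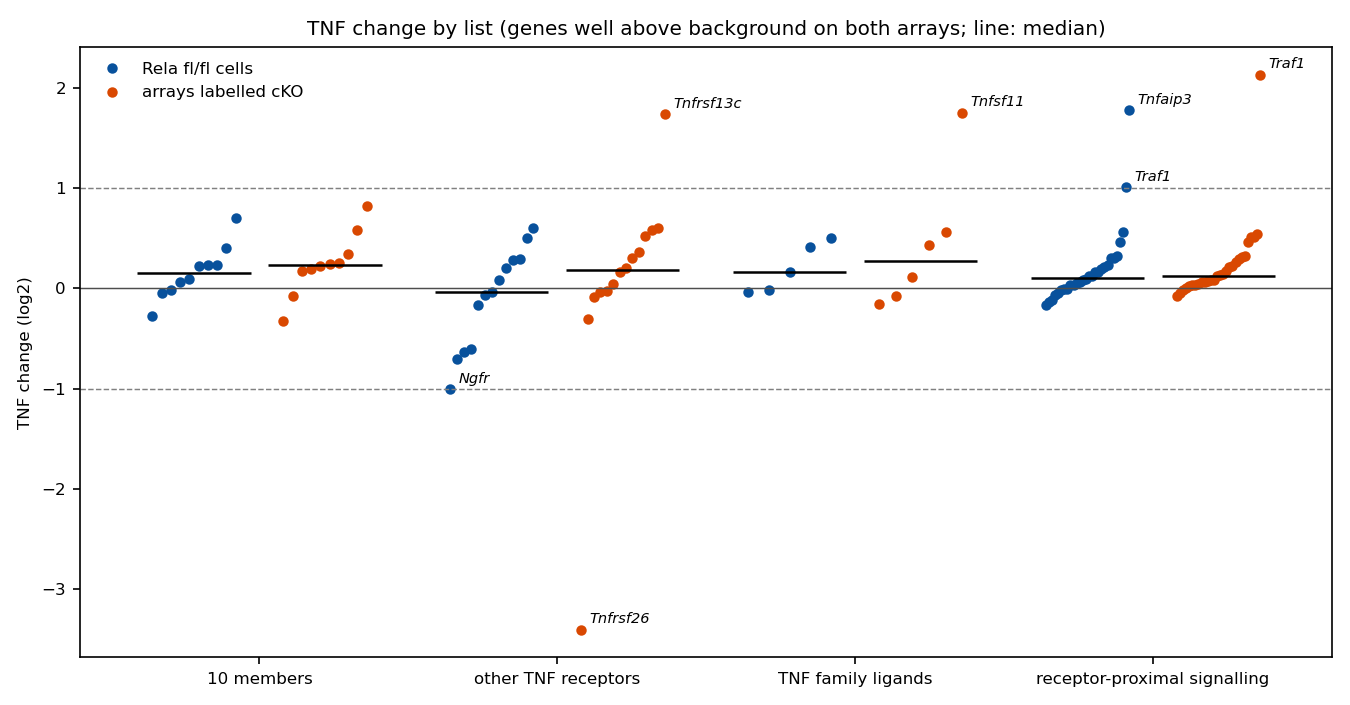
Log2 difference with TNF of each gene of 4 lists (the 10 members, other TNF receptors, TNF family ligands and receptor-proximal signalling) in controls (Rela fl/fl, blue) and on the cKO-labelled arrays (orange), for genes well above background on both arrays of a comparison, which leaves out *Tnfsf11* in controls; black lines are medians over the genes drawn and dashed lines mark 2-fold. No member lies past the 2-fold lines, and the genes that do are named.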

How the data were processed

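RNA of primary chondrocytes was measured on 4 arrays, 1 per group, with 1 dye (Cy3) on the SurePrint G3 Mouse design of Agilent. They shared 1 slide and 1 scan. The authors deposited spot intensity values from Feature Extraction 10.10.1.1, which subtracts background and flags spots that are outliers or well above background. They also deposited a value table in which the processed intensity of an array is multiplied by a constant (1.83, 1.77, 1.79 and 1.78, with column medians of 82.4, 74.2, 88.5 and 69.4, for controls without and with TNF and cKO-labelled arrays without and with TNF). What sets these constants is not given in the sources used here.

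From the deposited intensity of 59305 transcript spots per array, log2 was taken and that of the array's 75th percentile (590 to 634 intensity units) was subtracted. Outlier spots (138 to 225 per array, none of a member) were left out, the mean over the spots of a probe was taken, and a gene was represented by its probe of highest mean. No spot was saturated, and 50.9% to 58.1% of probes were well above background. A dim signal was set to the lowest value that its array measured well above background (0.0296 to 0.0524), or kept its own value where that was higher, and differences against it are bounds, kept where the measured side was the brighter. Symbols came from RefSeq (GRCm38.p6) by accession and were found for 27208 of 55619 probes. The array design names another build, so no gene coordinates were taken from that table. A spot lay in a patch when at least 3 of the 54 other spots in a window of 11 rows and 5 columns were at least 2-fold brighter there than on any other array, after a log2 floor of -4.5.

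The named genes were all members with every probe, the genes of each pathway list and marker list past 2-fold and well above background on both arrays of a comparison, 10 TNF response genes, *Rela*, and the 3 genes nearest to a member that spanned 2-fold, of which 1 is not reported here. Ligands of members and other genes named as examples were chosen after their values were seen. The members, the lists, the patch rule and the comparisons were chosen with earlier results of these data known. With 1 array per group, no test was run and the number of arrays limits the precision. Alternatives in scaling, background, filter, probe summary, patches and limit were tried, and the counting rule was tested on simulated data. Python 3.11.15 with numpy 2.4.6, pandas 2.3.3 and matplotlib 3.10.9, and limma 3.58.1 in R 4.3.3 for quantile normalization and normexp (offset 50), were used.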

Additional observations from a re-analysis of the deposited data

Results flagged for a closer look

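In 3 members the log2 difference with TNF had opposite signs in the 2 genotypes. It was 0.70 in controls and -0.07 on the cKO-labelled arrays for *Fas*, -0.04 and 0.22 for *Tnfrsf21*, and -0.02 and 0.34 for *Fadd*. With 1 array per group, the difference between genotypes was not tested for any of them. The value nearer to 0 was within the technical spread at that level for *Tnfrsf21* (0.143) and *Fadd* (0.0949), and just beyond it for *Fas* (0.0671 for a mean of 2 spots). The spot of *Tnfrsf21* lay in a patch on the cKO-labelled array without TNF and that of *Fadd* in a patch on the control array without TNF, and the part of these patches was not tested. For both genes the value in controls was above 0 with normexp background (0.0791 and 0.0517), which removes the opposite signs, whereas the signs for *Fas* were the same under the 4 alternatives that act on it.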

How the results depend on the processing

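Of 304 differences of members recomputed with other processing, 128 were identical because the alternative does not touch the gene. Of the 176 others, 9 changed sign, 156 kept it and shifted by under 0.138, and 11 kept it and shifted by more. The 0.138 is the technical spread over all signal levels, wider than that of most members at their own level. On the cKO-labelled arrays with TNF, *Fas* went from -0.07 to -0.19 with the deposited value table, at a spread of 0.0671. *Tnfrsf12a* went there from 0.82 to 0.69 with quantile normalization, at a spread of 0.0789. With the mean over probes, *Tnfrsf19* with TNF in controls went from -0.28 to 0.25, *Tnfrsf1a* between genotypes with TNF from 0.07 to -0.0463, and *Tnfrsf9* between genotypes from 0.16 to -0.56 without TNF and from 0.10 to -0.70 with it, but the mean takes in its dim probe below background, so no direction follows from it. The same mean gave 0.82 and 0.68 for *Tnfrsf9* with TNF in controls and on the cKO-labelled arrays, and 0.69 and 0.06 for *Tnfrsf19* between genotypes without and with TNF. The other changes of sign were close to 0: *Tnfrsf1a* between genotypes with TNF was -0.000807 without scaling and -0.00481 with quantile normalization, *Tnfrsf21* with TNF in controls was 0.000886 with quantile normalization and 0.0791 with normexp background, and *Fadd* with TNF in controls was 0.0517 with normexp background. With normexp background, *Tnfrsf1b* came to 0.42 with TNF on the cKO-labelled arrays and to 0.18 between genotypes with TNF, *Tnfrsf21* to 0.21 between genotypes with TNF, and *Tnfrsf19* to -0.08 with TNF on the cKO-labelled arrays and to 0.16 and 0.24 between genotypes without and with TNF. Quantile normalization also gave -0.08 for *Tnfrsf19* with TNF on the cKO-labelled arrays. The median over members between genotypes with TNF, 0.29, was 0.12 with each probe counted and 0.11 with patches left out, where 6 members remain. At the 1.5-fold limit, the 0 members past 2-fold became 1 higher (TNF in controls), 2 higher (TNF on cKO-labelled arrays), and 1 higher and 1 lower (genotypes with TNF). The share of all genes past 2-fold, 3.24% to 5.67% over the comparisons, was 0.951% to 2.05% with patches left out, 1.62% to 2.62% with probes well above background on both arrays only, 1.501% to 3.08% with normexp background, and 7.63% to 8.82% with no filter. It was 1.79% to 3.42% at 3-fold, 7.10% to 10.5% at 1.5-fold, and 4.30% to 7.98% over all genes and unnamed transcripts. The cause of these changes was not tested. A patch is defined by neighbouring spots at least 2-fold brighter on 1 array, so leaving patches out removes 2-fold differences partly by construction. No paired analysis was possible because each comparison has 1 array per group and so 1 pair by replicate number. Taking genotype or TNF as the block for the other was possible and was not run. *Tnfrsf19* and the dim probe of *Tnfrsf9* lie near the background, where the technical spread is widest.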
